A study of Mus musculus with 2 samples.

Results

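EP300 peaks at the starts of non-coding RNA genes made up 260 of the 7733 optimal peaks on named chromosomes in newborn mouse stomach, a share of 3.36% (exact 95% binomial interval 2.97 to 3.79%). They were chosen by position alone. A peak was kept when its summit lay within 1 kb of a transcript start of a lincRNA, antisense, processed transcript, snRNA, miRNA or snoRNA gene of the GENCODE M21 annotation and over 1 kb from every transcript start of a protein-coding gene. Of 667 optimal summits within 1 kb of such a non-coding start, 407 also lay within 1 kb of a coding start and were left out. EP300 was mapped by chromatin immunoprecipitation and sequencing (ChIP-seq) in whole stomach of mice of strain B6NCrl at postnatal day 0, with no allele, treatment or sex given. The 2 libraries form 1 group. Their labels call them biological replicates 1 and 2 yet name a single biosample and donor, so differences between them may be technical. The peak lists hold no read counts, so depth is unknown, and no expression, so the tissue label was not checked against marker RNAs.

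EP300 (p300) is a histone acetyltransferase and co-activator that transcription factors bring to active promoters and enhancers, and its binding in tissue is widely used to find enhancers. Promoters of long non-coding RNAs resemble coding promoters, although many lie in enhancers and start short-lived transcripts. Genes of the spliceosomal small nuclear RNAs are short and mostly transcribed by RNA polymerase II from compact promoters of their own, while U6 and U6atac are transcribed by RNA polymerase III. Most microRNAs and small nucleolar RNAs are cut from longer host transcripts, so the annotated start of such a gene is the end of a precursor within a host and is often not a promoter.

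The 8 strongest peaks of the set are shown as the summit with 100 bp on either side. They stand for the strong end of the set and not for its CpG-poor majority: 7 of the 8 windows had a CpG ratio, described below, of 0.6 or above, against 82 of all 260. They were read from the GRCm38 (mm10) assembly of RefSeq on the strand of the non-coding transcript. Capitals mark the letters of a searched motif, here GGGCGG, bound by KLF and SP factors, or CCAAT, bound by NF-Y, on either strand. The windows are chr16:25059297-25059497 (plus strand) for A230028O05Rik, chr7:63896988-63897188 (plus) for Gm27252, chr11:116671471-116671671 (plus) for 1810032O08Rik and chr11:87422681-87422881 (plus) for the upstream peak of Rnu1a1. The others are chr5:100429505-100429705 (minus) for 5430416N02Rik, chr17:34952538-34952738 (minus) for 1110038B12Rik, chr11:87422907-87423107 (plus) for the downstream peak of Rnu1a1 and chr3:123508497-123508697 (minus) for Snhg8.
A230028O05Rik: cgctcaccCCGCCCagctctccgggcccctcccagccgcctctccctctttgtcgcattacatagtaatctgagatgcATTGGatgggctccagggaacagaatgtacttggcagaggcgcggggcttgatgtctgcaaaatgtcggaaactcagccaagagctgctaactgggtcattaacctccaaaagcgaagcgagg
Gm27252: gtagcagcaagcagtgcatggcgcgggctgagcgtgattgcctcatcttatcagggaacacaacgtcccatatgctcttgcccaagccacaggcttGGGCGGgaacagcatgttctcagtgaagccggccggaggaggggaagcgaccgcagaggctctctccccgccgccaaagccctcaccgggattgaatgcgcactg
1810032O08Rik: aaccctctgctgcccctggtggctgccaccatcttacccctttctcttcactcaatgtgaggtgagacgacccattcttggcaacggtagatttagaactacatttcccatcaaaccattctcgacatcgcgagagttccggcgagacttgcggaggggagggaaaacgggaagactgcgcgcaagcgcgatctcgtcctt
Rnu1a1 upstream peak: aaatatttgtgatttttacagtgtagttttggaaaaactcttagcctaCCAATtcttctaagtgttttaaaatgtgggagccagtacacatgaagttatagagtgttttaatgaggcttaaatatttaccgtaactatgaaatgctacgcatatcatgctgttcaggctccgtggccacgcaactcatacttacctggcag
5430416N02Rik: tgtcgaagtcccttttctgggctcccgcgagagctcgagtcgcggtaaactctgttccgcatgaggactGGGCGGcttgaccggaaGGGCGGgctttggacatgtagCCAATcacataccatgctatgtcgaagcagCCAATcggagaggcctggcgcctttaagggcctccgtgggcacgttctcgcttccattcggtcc
1110038B12Rik: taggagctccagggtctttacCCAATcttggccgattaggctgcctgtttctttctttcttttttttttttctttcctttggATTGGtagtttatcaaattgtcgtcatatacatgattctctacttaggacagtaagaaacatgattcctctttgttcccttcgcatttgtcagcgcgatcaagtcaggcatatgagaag
Rnu1a1 downstream peak: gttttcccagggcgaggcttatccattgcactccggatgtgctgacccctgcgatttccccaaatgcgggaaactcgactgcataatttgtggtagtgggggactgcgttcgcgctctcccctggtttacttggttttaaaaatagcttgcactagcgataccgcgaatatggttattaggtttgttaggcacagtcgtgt
Snhg8: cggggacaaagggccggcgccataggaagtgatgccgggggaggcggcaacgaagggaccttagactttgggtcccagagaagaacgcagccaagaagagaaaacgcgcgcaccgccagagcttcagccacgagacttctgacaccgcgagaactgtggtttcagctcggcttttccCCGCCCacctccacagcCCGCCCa
Counted from 1 at the left end, the annotated start is base 190 of the window of 1810032O08Rik, base 187 of the upstream window of Rnu1a1 and base 171 of that of 5430416N02Rik. In the other 5 windows the start lies outside. The upstream Rnu1a1 window had a GC content of 37.3%, against 62.7% in the Snhg8 window, so even the strongest peaks spanned AT-rich and GC-rich starts.

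The peaks lay near the starts of 226 of 14695 annotated genes of these 6 types, which is 1.54% of them. By the nearest start, 129 peaks belonged to lincRNAs (49.6%, interval 43.4 to 55.9%), 50 to antisense transcripts (19.2%), 38 to processed transcripts (14.6%), 23 to snRNAs (8.85%), 14 to miRNAs (5.38%) and 6 to snoRNAs (2.31%). Read against the size of each class in the annotation, the order was different. A peak of the set lay at 34 of 790 processed transcript genes (4.30%, interval 3.0 to 5.96%) and at 108 of 5854 lincRNA genes (1.84%, 1.52 to 2.22%). The shares were 18 of 1383 snRNA genes (1.30%), 37 of 2959 antisense genes (1.25%), 15 of 1507 snoRNA genes (0.995%) and 14 of 2202 miRNA genes (0.636%, 0.348 to 1.06%). The intervals of processed transcripts and lincRNAs did not overlap, and both lay above the miRNA interval. Processed transcript genes have more annotated starts, 2.65 distinct positions per gene, against 1.38 for lincRNAs and 1 for miRNAs. Counted per start, a peak of the set lay within 1 kb of 94 of 2091 processed transcript starts (4.50%, interval 3.65 to 5.47%), 162 of 8098 lincRNA starts (2.00%, 1.71 to 2.33%) and 14 of 2202 miRNA starts, and starts of 1 gene can share a peak. These intervals cover the counting of genes only, and neighbouring genes can share a peak: 33 of the 260 peaks lay within 1 kb of starts of more than 1 non-coding gene. Of the 15 snoRNA genes counted, only 4 had the nearest start to a peak, against 100 of the 108 lincRNA genes. With the peaks within 1 kb of a coding start counted too, the order changed below the processed transcripts. An optimal peak of any kind lay near a start of 92 processed transcript genes (11.6%), 156 antisense genes (5.27%, interval 4.49 to 6.14%), 160 lincRNA genes (2.73%, 2.33 to 3.18%), 40 snoRNA genes (2.65%), 53 miRNA genes (2.41%, 1.81 to 3.14%) and 27 snRNA genes (1.95%). The lincRNA and miRNA intervals then overlapped.

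The 260 peaks fell into 208 regions, where a region is a run of overlapping peaks. In 49 regions 2 or 3 peaks of the set lay together, 101 peaks in all, with neighbouring summits a median of 219.5 bp apart (199 to 404 bp). Such neighbours can share 1 peak of a replicate list, so the peaks are not independent of each other. At the 1 kb limit, the farthest summit kept lay 996 bp from its non-coding start with a signal value of 36.1, and the nearest one left out lay at 1010 bp with a signal value of 125.5. At the limit on coding starts, the closest one kept lay at 1023 bp (signal value 24.6) and the farthest one left out at 977 bp (20.4).

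The middle of the EP300 signal at these starts was close to that elsewhere. The signal value is the strength the authors' peak caller gave each peak, on the scale of its list. The median over the 260 peaks was 30.8 (quartiles 24.2 and 39.2, range 7.68 to 206.6), against 31.8 at 3123 coding-start peaks (quartiles 23.6 and 44.7), 29.3 at the 4350 peaks near neither kind of start and 30.2 over all optimal peaks. The interval of the median was 29.0 to 32.2 for the non-coding starts, which held the median of all peaks. The upper end differed more than the middle. Among the 300 strongest optimal peaks were 5 of the set (1.92% of it, interval 0.627 to 4.43%), against 8.23% of coding-start peaks and 0.874% of the other peaks. At the lower end, 19 peaks of the set had a signal value under 10 (7.31%, interval 4.46 to 11.2%), against 3.62% of coding-start peaks and 3.40% of the others. Of these 19, 6 stood alone in their region and 7 had a conservative peak at their place. There is 1 group and peaks are not replicates, so no test was made between classes of peaks here, and all such values are descriptions. In whole stomach, binding in few cells and weak binding in many cells cannot be told apart.

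**Figure D1:**
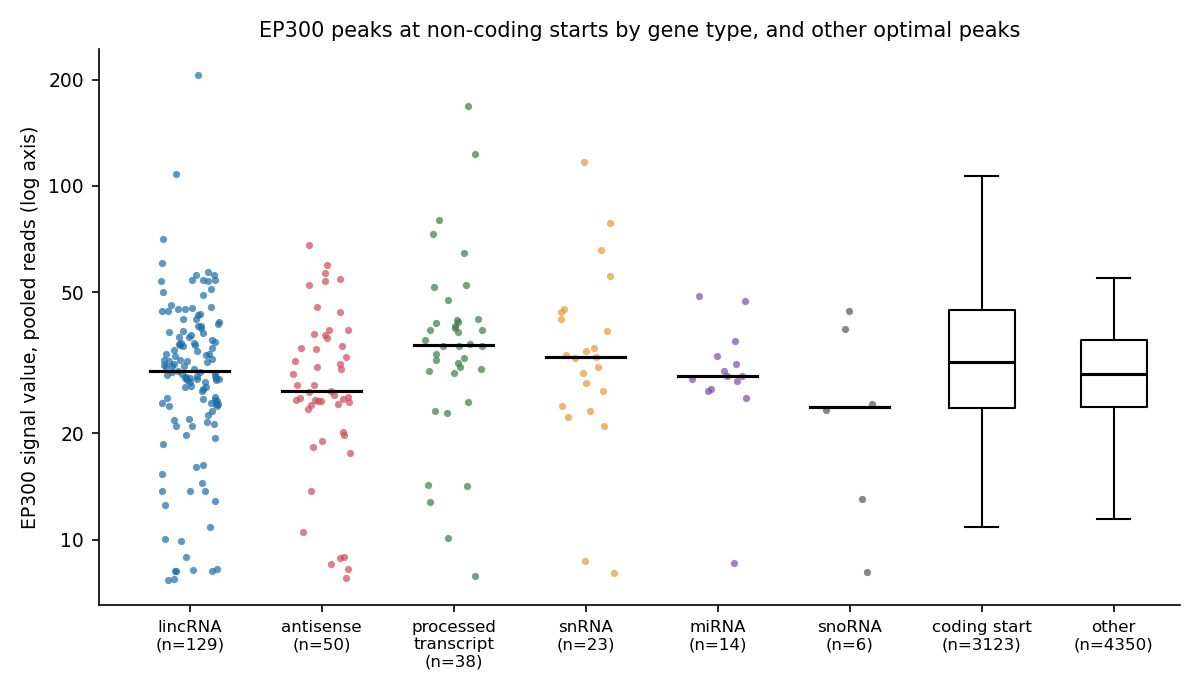
Each point is an EP300 peak at a non-coding start, by gene type, with its signal value on a log axis and black lines at the medians; boxes show the quartiles and whiskers the central 90% of the coding-start and other peaks. The type medians lie between 23.7 (snoRNA) and 35.5 (processed transcript), and the highest point is A230028O05Rik at 206.6.

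By gene type, the plot of signal values shows processed transcripts highest, with a median of 35.5 (interval of the median 31.6 to 40.2), and snRNAs next with 32.8. The lincRNA peaks had a median of 29.9, the miRNA peaks 29.0, the antisense peaks 26.2 (24.7 to 32.0) and the 6 snoRNA peaks 23.7. The intervals of the processed transcript and antisense medians overlapped by less than 1 signal unit. The conservative set, a shorter selection that the authors made from the same libraries, has 6972 peaks on named chromosomes, against 7733 in the optimal set. It had a summit inside 170 of the 260 peaks (65.4%, interval 59.3 to 71.2%), against 72.0% of coding-start peaks and 63.6% of the others. Overlapping peaks can share 1 conservative summit, so being conservative here describes a place and not each peak by itself. Here too the types differed: 32 of 38 processed transcript peaks (84.2%) and 19 of 23 snRNA peaks (82.6%) were conservative, against 74 of 129 lincRNA peaks (57.4%, interval 48.4 to 66.0%). The interval of the processed transcripts began at 68.7%, above that of the lincRNAs, while that of the snRNAs began at 61.2%.

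Both libraries held most of these peaks, but their strengths matched loosely. A peak of the replicate 1 list had its summit inside 235 of the 260, a peak of the replicate 2 list inside 246, and both did inside 224. Over all optimal peaks, both did inside 6865 of 7733. Each replicate list holds 300000 peaks, so this criterion is loose. Signal values in those lists are on their own scales, with medians of 18.3 in replicate 1 and 16.2 in replicate 2. Across the 224 the Spearman correlation between libraries was 0.355, beside 0.529 at coding-start peaks (2734 peaks) and 0.217 at the others (3907 peaks). Each is a correlation across peaks of the same 2 libraries and a description. When each replicate list was taken down to as many strongest peaks as the optimal set holds, 108 of the 260 were found in both lists, 44 only in replicate 1, 59 only in replicate 2 and 49 in neither. The median signal value in the optimal list was 40.1 for those found in both and 19.7 for those found in neither. The optimal list rests on the pooled reads of the same libraries, so these values are tied to each other by construction.

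**Figure D2:**
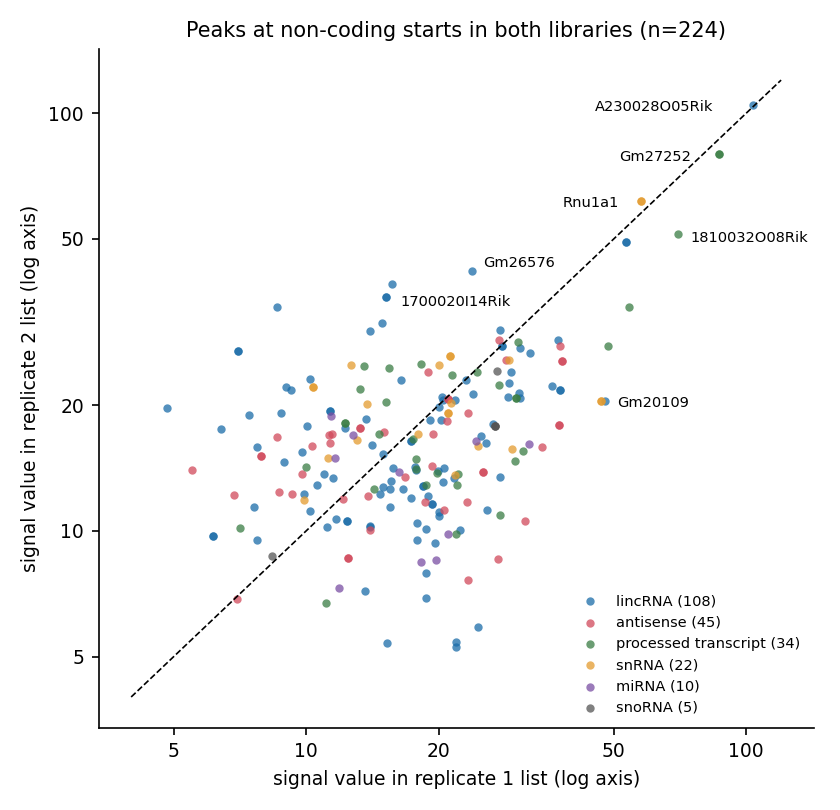
Each point is 1 of the 224 peaks at non-coding starts that both libraries held, with its signal value in the replicate 1 list across and in the replicate 2 list upward, both log axes, coloured by gene type; the dashed line marks equal values. A230028O05Rik and Gm27252 lie near the line, while Gm20109 stands at 47.7 in replicate 1 and 20.5 in replicate 2, and 1700020I14Rik at 15.2 in replicate 1 and 36.2 in replicate 2.

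The strongest peaks were spread over gene types. The 25 strongest belonged to 11 lincRNA, 5 antisense, 5 processed transcript and 4 snRNA peaks in 24 regions, all 25 were in the conservative set and both libraries, and the last of them ranked 813th among all optimal peaks. The top one lay upstream of A230028O05Rik, a lincRNA far from coding starts: its signal value was 206.6, with 103.5 in replicate 1 and 104.6 in replicate 2, and its summit was 242 bp upstream of the start and 214222 bp from the nearest coding start, that of Lpp. The next lay 555 bp inside Gm27252, a processed transcript that runs against Klf13 within an intron of that zinc-finger factor gene. Its signal value was 168.7, with 86.9 in replicate 1 and 79.6 in replicate 2. For both, the 2 libraries gave nearly the same strength. The lincRNA 5430416N02Rik had 108.2, with 53.4 in replicate 1 and 49.2 in replicate 2, at 70 bp upstream of its start.

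Other strong peaks at long non-coding starts are given with the nearest coding start, which places them and does not name a target. The peak of 1110038B12Rik, 6600 bp from Hspa1b, a heat-shock chaperone gene, had a signal value of 80.1, with 54.0 in replicate 1 and 34.3 in replicate 2. Gm20109, 5612 bp from Fkbp5, a glucocorticoid-induced chaperone gene, had 60.7, with 47.7 in replicate 1 and 20.5 in replicate 2. 2410080I02Rik, 6100 bp from the factor gene Klf9, had 57.3, with 37.4 and 28.7 in replicates 1 and 2. Replicate 1 gave the higher value for each of these 3. Gm26576, an intergenic lincRNA 114112 bp from Reep3, stood the other way with 23.8 in replicate 1 and 41.8 in replicate 2 and a signal value of 70.8. Further out were Gm13003, 112284 bp from Wnt4 (54.2), and Gm15271, 146978 bp from Ccn2, the connective tissue growth factor gene (54.0). Antisense peaks among the 25 were those of Zmiz1os1 (68.1), Rab10os (59.9), Gm28863 (56.8, which lay 10404 bp from Adm, the adrenomedullin gene), Frmd8os (54.5) and 1700113A16Rik (53.9, 9554 bp from the muscle factor gene Mef2d). The rest of the 25 were peaks of 2900052L18Rik (64.7), AI480526 (55.8) and Gm42555 (54.2) and of the listed genes below.

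Some starts drew runs of summits. By summits within 1 kb of a start, 54 non-coding genes had 2 or more. AI480526, a lincRNA near Setd1b, had 5, at signal values of 55.8, 36.3, 31.1, 28.2 and 8.19, and 4 of these also lay at 4932422M17Rik, for which they were nearer to a start of AI480526. Those of 36.3, 28.2 and 8.19 were not in the conservative set, and those of 36.3 and 28.2 had no replicate 1 peak. Junos, the antisense neighbour of the AP-1 gene Jun, had 4 in 2 groups, at 39.2 and 18.3 far from the Jun start (24242 and 24454 bp) and at 19.7 and 8.54 closer to it (1278 and 1596 bp). The stronger pair was in the conservative set and the weaker pair was not. CT030636.1, outside coding genes with the start of Igf2r at 21054 to 22394 bp, had 4 between 13.7 and 29.9. Of these, the summits of 26.7 and 13.7 were not in the conservative set, and that of 13.7 had no replicate 1 peak. The U6 gene Gm23296 and the unassigned snRNA gene Gm24859 shared 3 summits on chromosome 12, at 43.9, 34.8 and 8.05. F630040K05Rik had 3, all weak (8.13 to 12.8), and none of them was in the conservative set.

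Host genes of small nucleolar RNAs, whose introns release the RNAs that guide modification of ribosomal RNA, had EP300 at many starts. Of 19 genes on the list of such hosts, 8 had a peak of the set (42.1%, exact interval 20.3 to 66.5%), beside 1.54% of all non-coding genes. The lists were drawn up with earlier results of these data known and are described by their counts only. The strongest was 1810032O08Rik, which RefSeq lists as Snhg16, at chr11:116671291-116671850 and 89 bp upstream of the start, with a signal value of 123.5, 70.1 in replicate 1 and 51.3 in replicate 2. Snhg8 followed with 73.0 (48.5 in replicate 1 and 27.7 in replicate 2), then Snhg5 with 52.5, Snhg15 with 47.7, Snhg20 with 42.1, Epb41l4aos with 39.6, Snhg6 with 35.7 and Snhg17 with 24.6. The Snhg17 peak, with 7.06 in replicate 1 and 10.2 in replicate 2, was not conservative. Except for Snhg8, each host had its summit within 101 bp of a start, and that of Snhg17 lay on it. A further 4 hosts, Snhg1, Snhg9, Snhg10 and Gas5, had an optimal peak at a start that was also within 1 kb of a coding start, at 40.7 to 49.3. Snhg3 had its nearest optimal summit at 1138 bp, and Snhg12, Snhg14, Snhg18, Zfas1, Tug1 and Rian had none within 1 kb. Tug1 is also on the list of widely expressed and nuclear RNAs, and its place on the host list was not checked.

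The snRNA genes carried 23 peaks, at 18 genes, of which 18 peaks at 15 genes belonged to the families of RNAs that splice pre-mRNA and the rest to genes with no RefSeq product. The strongest pair flanked Rnu1a1, a gene of U1, the RNA that recognises donor splice sites, which lies in an intron of Tex14. The upstream peak had a signal value of 116.8 at 86 bp before the start and the downstream one 78.5 at 140 bp after it, and both held the same replicate peaks, of 57.7 in replicate 1 and 61.7 in replicate 2. Rnu11, which makes the U11 RNA of the minor spliceosome, had 65.8 at 4 bp before the start, with 46.8 in replicate 1 and 20.4 in replicate 2. Rnu5g, a gene of U5, which holds the exons in place, had 55.7 at 71 bp before the start, with 28.9 in replicate 1 and 25.6 in replicate 2. By RefSeq product, the share of annotated genes with a peak ran from 4 of 10 U5 genes (40.0%, interval 12.2 to 73.8%), 1 of 5 U11 genes (20%, 0.505 to 71.6%), 2 of 11 U4 genes (18.2%), 2 of 28 U2 genes (7.14%) and 1 of 15 U6atac genes (6.67%) to 2 of 114 U1 genes (1.75%), 3 of 466 genes with no product (0.644%) and 3 of 685 U6 genes (0.438%). The unit of these families is the annotated copy, and near-identical copies can share reads, whose handling is not given in the sources used here and whose part in these values was not tested. The U2 gene Gm24497 had 44.9 and 33.2, the U6 gene Gm23296 43.9, the U5 gene Gm25099 42.1 and 23.2, the U4 gene Gm24407 38.95, and Rnu2-10 only 8.69, at 716 bp, with no peak in replicate 2. No U12 (0 of 4) or U7 (0 of 45) gene had a peak of the set, but Rnu12 and Rnu7 had optimal peaks within 1 kb of coding starts, at 38.8 and 36.2, as did Rmrp, the RNA of RNase MRP, at 29.0. The snoRNA-type gene Snord118, which makes U8, had 3 peaks of 39.5, 24.2 and 23.2, and Gm25336 had 44.4.

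Of long non-coding RNAs known for wide expression or nuclear roles, 4 of 22 had a peak of the set (18.2%, interval 5.19 to 40.3%). The share over all non-coding genes was 1.54%. Malat1, an abundant nuclear RNA of speckles, had 54.4 at 78 bp after the start, with 36.2 in replicate 1 and 22.2 in replicate 2. Neat1, the scaffold RNA of paraspeckles, shared a start region with Frmd8os on chromosome 19, where peaks of 54.5 and 34.8 lay within 1 kb of starts of both. 1700020I14Rik, which RefSeq lists as Oip5os1, also called Cyrano, had 51.2 and 27.9, over a replicate 1 peak of 15.2 that ranked 6468th in its list and a replicate 2 peak of 36.2 that ranked 442nd. Jpx, an activator of Xist, had 24.3, with 15.3 in replicate 1 and 5.38 in replicate 2, and was not conservative. The imprinted or X-inactivation RNAs Xist, Tsix, H19, Meg3, Kcnq1ot1 and Airn had no optimal summit within 1 kb of a start. The peak nearest to Xist, at 10469 bp, was that of Jpx. The X chromosome held 2 of the 260 peaks.

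Among RNAs known from smooth muscle and mesenchyme, which build the outer stomach wall, peaks lay at host genes and at 2 miRNAs. Carmn, the smooth muscle host of Mir143 and Mir145a, had a peak of 55.9 at 19 bp after the start, with 30.5 in replicate 1 and 27.4 in replicate 2, and a second of 32.5. Mir145a itself had 2, of 49.0 and 28.1, the first without a replicate 1 peak and the second without a replicate 2 peak. Mir143 had none within 1 kb, and its nearest optimal summit lay at 1062 bp with a signal value of 26.8. Dnm3os, the antisense host of Mir199a-2 and Mir214, had 31.4 (18.6 in replicate 1 and 11.7 in replicate 2), and that summit also lay 401 bp from Mir199a-2. Further host genes with a peak were Mir99ahg with 32.2 and 3110039I08Rik, which RefSeq lists as Mir100hg, with 23.1. That of Mir99ahg had no replicate 1 peak. That of 3110039I08Rik had 21.8 in replicate 1 and 9.83 in replicate 2 and was not conservative. Mirt1, a transcript named for myocardial infarction, had 44.4. In counts, 2 of 24 listed smooth muscle and mesenchyme miRNAs had a peak of the set (8.33%, interval 1.03 to 27.0%). Among 25 listed epithelial miRNAs, 0 did (exact interval 0 to 13.7%). Over all annotated miRNA genes the share was 0.636%, inside the epithelial interval and below the other. The intervals of the 2 lists of miRNAs overlap, so the counts do not set them apart. On the list of miRNA hosts, 4 of 17 genes had a peak (23.5%, 6.81 to 49.9%), beside 1.54% of all non-coding genes. That list also holds Mir703 and Mir216b, which are annotated as miRNA genes and had no peak of the set, so the share is not one of hosts alone. The 4 on the host list were Carmn, Mir99ahg, 3110039I08Rik and Mirt1, which is not known as a host, while Dnm3os stands on the stress list and not on it. Trp53cor1, the p53 target RNA beside Cdkn1a, had 27.0, with 10.02 in replicate 1 and 17.9 in replicate 2, and was not conservative. With Mirt1 and Dnm3os it made 3 of 11 listed stress and p53 RNAs (27.3%, interval 6.02 to 61.0%), beside 1.54% of all non-coding genes. Mirt1 is thus counted on both this list and the host list. The places of Mirt1 and Dnm3os on the stress list were not checked. A further 2 genes of the stress list, Gas5 and Mir22hg, had optimal peaks only within 1 kb of a coding start. Of 28 long non-coding RNAs beside developmental factor genes, such as Hotair, Fendrr, Sox2ot and Gata6os, 0 had a peak of the set. The exact interval, 0 to 12.3%, held the 1.54% of all non-coding genes. Some of these RNAs have a start within 1 kb of a coding start, such as Gata6os at 22 bp, where the rule leaves summits out. Tbx3os1 alone had an optimal peak, near the start of Tbx3.

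The annotated starts of miRNAs held few summits close by. The 14 miRNA peaks had a median distance of 437 bp and 4 of them lay within 250 bp. After Mir145a the strongest were Gm22328 in an intron of Foxp1, with 47.3 at 709 bp upstream, and Mir1960 in an intron of Hadhb, with 36.5 at 220 bp upstream. The summit of Gm22328 had a CArG box and a MEF2 motif, the binding sequences of SRF and MEF2 factors, within 100 bp. It was the only peak of the set with the MEF2 motif and 1 of 3 with a CArG box. The MEF2 motif was at 0.385% of the set, against 0.448% of coding-start peaks and 1.15% of the others. For the CArG box the shares were 1.15%, 1.22% and 2.21% in the same order.

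Summits of the set lay close to their starts on both sides. Upstream of the nearest non-coding start were 134 of 260 (51.5%, interval 45.3 to 57.8%), while 62.1% of coding-start peaks (60.4 to 63.8%) lay upstream of the nearest coding start. Within 250 bp lay 146 (56.2%, 49.9 to 62.3%), against 70.1% of coding-start peaks, and within 100 bp 70 (26.9%), against 42.0%. The median distance was 219.5 bp at non-coding starts and 130 bp at coding starts. For the 3 shares, none of the pairs of intervals overlapped. Each distance is to the nearest of all annotated starts, so genes with more starts can give shorter distances. The number of starts per gene was not matched between the classes. The snRNA peaks were the closest, with a median of 111 bp, 19 of 23 within 250 bp (82.6%, 61.2 to 95.05%) and a median position 43 bp upstream.

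**Figure D3:**
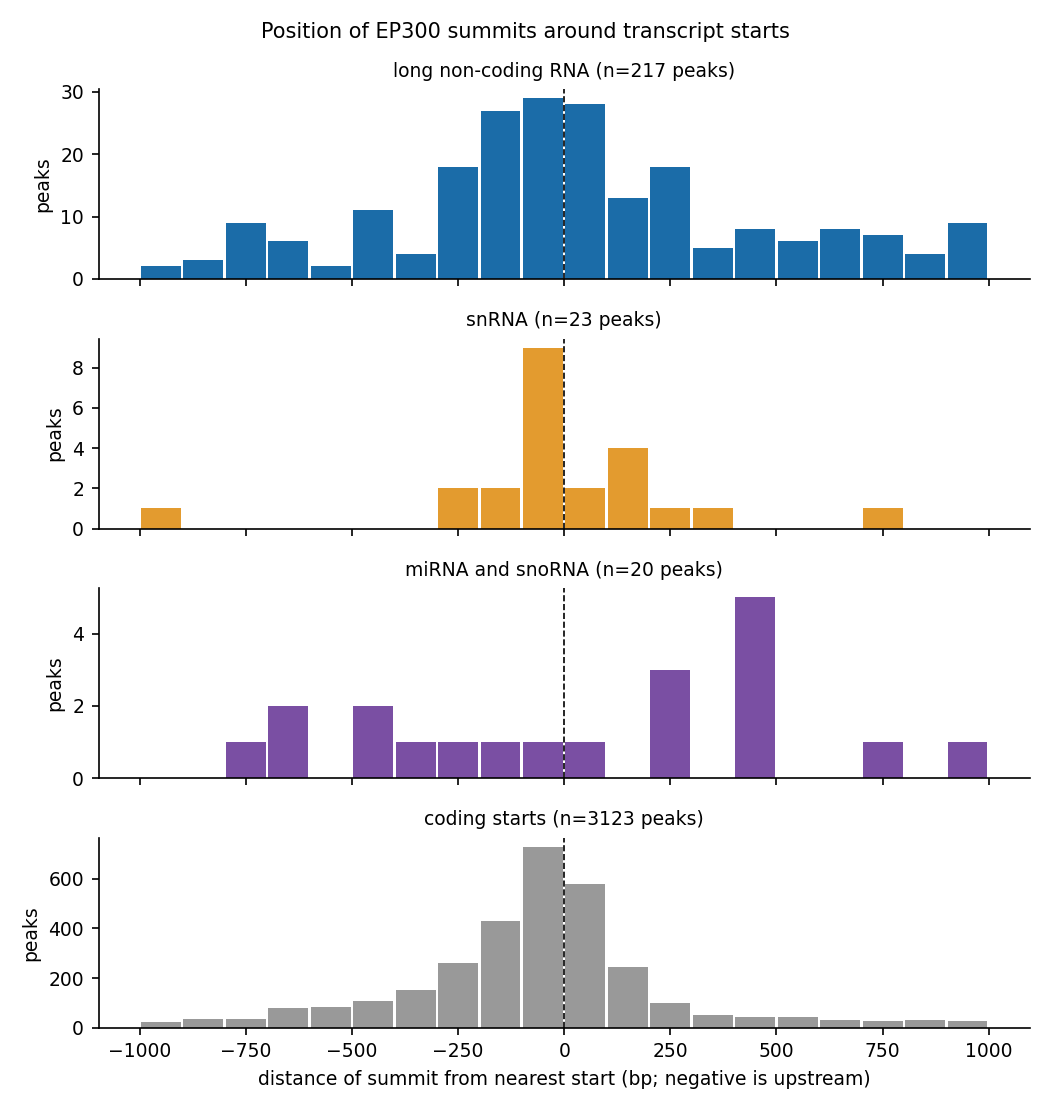
Bars count EP300 summits in bins of 100 bp by their distance from the nearest start, negative upstream, for long non-coding, snRNA, and miRNA and snoRNA peaks, and below them for coding-start peaks. The tallest bins of the long non-coding peaks hold 29 and 28 summits on either side of the start, that of the snRNA peaks 9 summits just upstream, and the miRNA and snoRNA peaks have no bin of that kind at the start.

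In distance from coding starts the set was close to the peaks near neither kind of start. Outside any coding gene were 210 of the 260 summits (80.8%), 48 lay in introns of coding genes and 2 in exons outside coding sequence. The rule and the intergenic definition of lincRNAs make such places more likely, and other peaks were not placed in this way. In the non-coding annotation, 118 lay outside the gene, 83 in an intron and 59 in an exon. The nearest coding start was a median of 20792 bp away (quartiles 5826 and 56288 bp, at most 807648 bp), against 19784 bp for the peaks near neither kind of start. Within 10 kb of a coding start were 86 (33.1%, interval 27.4 to 39.2%), against 32.5% of those other peaks. At 58 of these 86 the non-coding transcript ran on the strand opposite to that coding gene and at 28 on the same strand. Of 50 antisense peaks, 40 had their non-coding gene over a coding gene on the opposite strand, which the annotation's definition of that type makes likely.

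In base composition the set stood between coding starts and the other peaks. The CpG ratio, the observed over the expected number of CpG within 100 bp of the summit, had a median of 0.386 in the set, against 0.753 at coding starts and 0.223 in the others. At 0.6 or above, where CpG islands are usually placed, were 82 of 260 (31.5%, interval 25.9 to 37.6%), against 68.4% of coding-start peaks and 7.82% of the others, and these intervals did not overlap. The GC content had medians of 50.2%, 59.2% and 47.3% in the same order. The types differed here as well, with 15 of 23 snRNA peaks (65.2%) and 19 of 38 processed transcript peaks (50%) CpG-rich, against 36 of 129 lincRNA (27.9%), 9 of 50 antisense (18%) and 2 of 14 miRNA peaks (14.3%). Among the 25 strongest, 18 were CpG-rich. The 82 CpG-rich peaks had a median signal value of 35.7 and lay a median of 154 bp from the start, against 29.2 and 251.5 bp in the other 178.

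**Figure D4:**
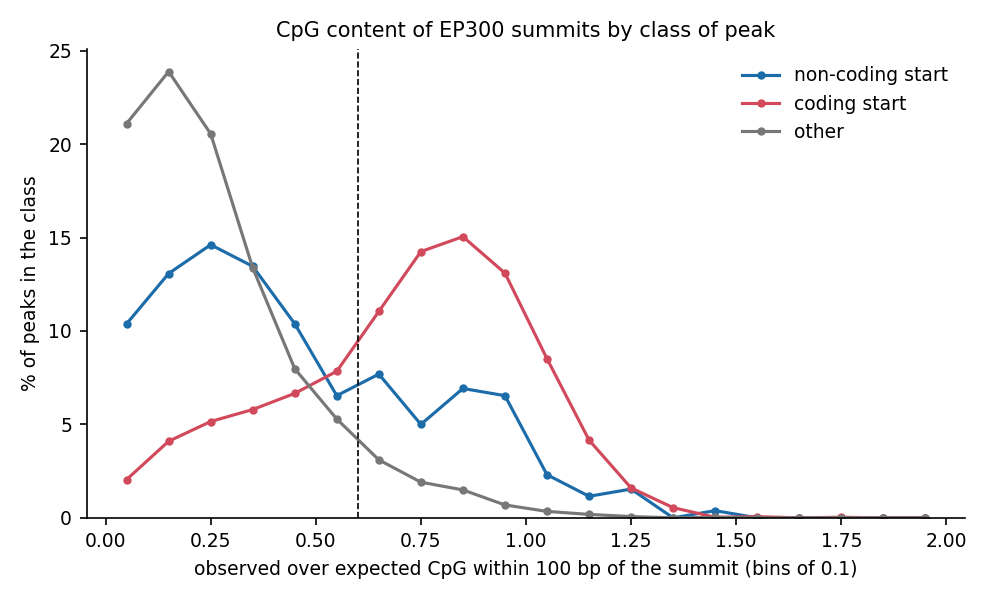
Lines give the share of each class of peaks per bin of 0.1 in CpG ratio, for non-coding-start, coding-start and other peaks, with the dashed line at 0.6. Peaks at non-coding starts spread over the whole range with 31.5% at or above the line, while coding-start peaks gather above it and the others below.

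The motifs showed the same mixture. The KLF and SP motif GGGCGG was within 100 bp of 46 of 260 summits (17.7%, interval 13.3 to 22.9%), against 38.0% at coding starts (36.3 to 39.8%) and 8.60% in the others (7.78 to 9.47%). The AP-1 motif TGANTCA, bound by Jun and Fos factors, was at 27 (10.4%, 6.96 to 14.7%), against 5.35% at coding starts and 18.1% in the others. For both motifs the set lay between the other classes with no overlap of intervals. All 46 GGGCGG matches were at long non-coding starts, 22 lincRNA, 12 antisense and 12 processed transcript, and none was at the 23 snRNA peaks. GGGCGG, which itself holds a CpG, was at 28 of 82 CpG-rich peaks (34.1%) and at 18 of the other 178 (10.1%), and AP-1 was at 6 of 82 (7.32%) and 21 of 178 (11.8%). The strongest peaks with an AP-1 match were those of Gm26576 (70.8) and 2410080I02Rik (57.3). Both motifs together were at 5 peaks.

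For none of the other 14 motifs did the interval of the set lie apart from those of both classes. NF-Y (CCAAT) was at 57 summits (21.9%), against 24.6% at coding starts and 21.98% in the others, TEAD (GGAATG) at 34 (13.1%, against 9.80% and 17.5%) and TATAAA, the core of the TATA box, at 28 (10.8%, interval 7.28 to 15.2%, against 5.28% and 12.1%). AGATAA, the core of the GATA factor motif, was at 21 (8.08%, against 4.90% and 10.4%) and FOX (TGTTTAC) at 16 (6.15%, interval 3.56 to 9.80%, against 2.88% and 6.11%). For TATAAA and FOX the interval of the set lay above that of coding starts and overlapped that of the others. The ETS motif CCGGAAGT, common at coding promoters, was at 6 (2.31%, interval 0.851 to 4.95%, against 5.22% and 0.391%), among them Snhg20 and the weaker peak of 5430416N02Rik (32.2), which is not the one printed above. The YY1 motif GCCATNTT was at 6 (2.31%, same interval, against 6.82% and 2.62%). The interval of the set lay above that of the other peaks for ETS and below that of coding starts for YY1. Few had GRHL AACCGGTT (3), HNF4 CAAAGTCCA (2), NRF1 GCATGCGC (1), CRE TGACGTCA (1), the CTCF core (2) or a CArG box (3). None of the 16 motifs was at 86 of the 260. In the snRNA peaks TATAAA was at 6 of 23 (26.1%, interval 10.2 to 48.4%), of which 4 were among the 5 U5 peaks, 1 was at U4 and 1 at the unassigned Gm23856, and 0 were among the 3 U6 peaks. A match is a run of letters within 100 bp of a summit on either strand and not a site of binding, and a window without one says only that these letters are not in it.

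**Figure D5:**
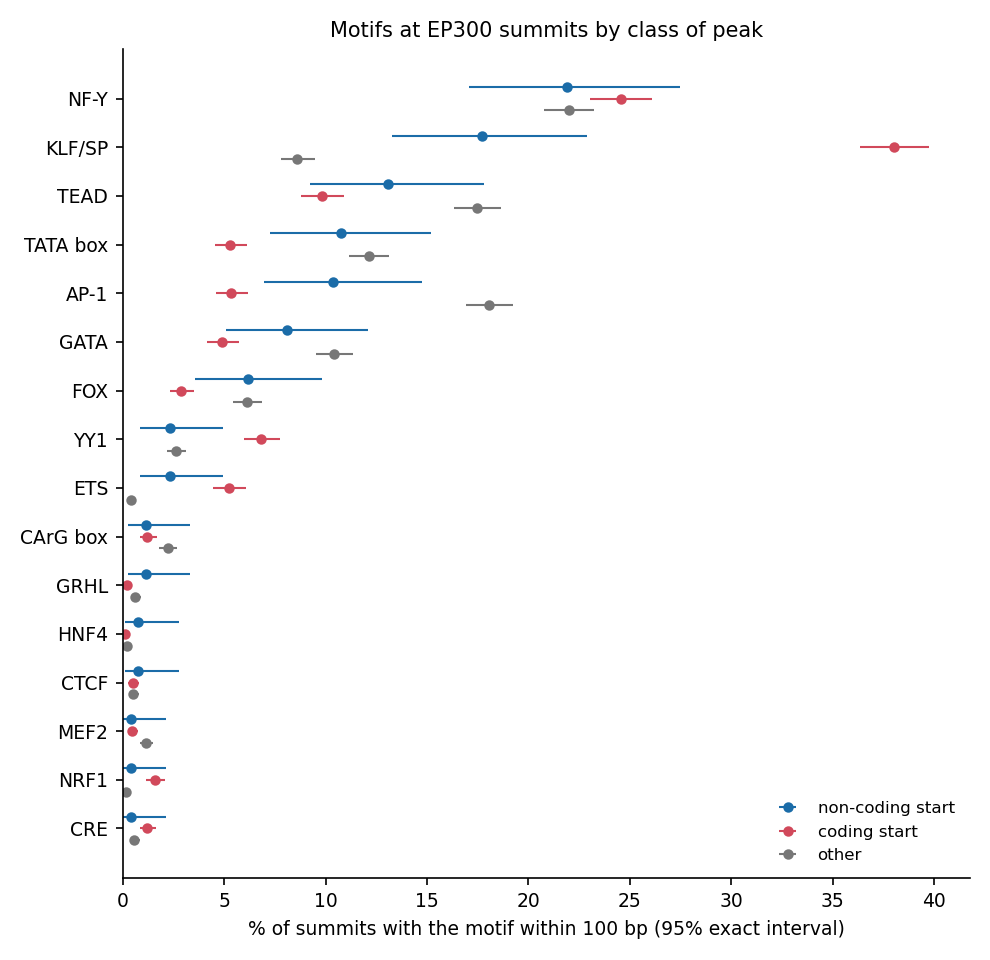
Points give the share of summits with each of 16 motifs within 100 bp on either strand, for non-coding-start, coding-start and other peaks from top to bottom of each group, with exact 95% binomial intervals. For KLF/SP and AP-1 the non-coding starts lie between the other classes, and for NF-Y all 3 intervals overlap.

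Of the 260 summits, 33 lay in repeats marked by the assembly (12.7%, interval 8.90 to 17.4%), against 8.58% of coding-start and 10.9% of other peaks, with 6 of 23 in the snRNA peaks. The 260 optimal peaks rested on 203 distinct peaks of replicate 1 and 210 of replicate 2.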

How the data were processed

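EP300 ChIP-seq peaks of newborn stomach (2 libraries, 1 group) were taken from 5 deposited peak lists in narrowPeak layout on mm10, per the labels and readme texts: 1 per replicate, 1 of pooled reads, and 2 sets (optimal and conservative) selected by IDR, the irreproducible discovery rate. The deposited signal value is that of the authors' peak caller, and its scale differs between lists. The deposited score of the IDR sets reaches 1000. The authors' summit is an offset from the peak start, a unit other than signal or score. Names and versions of peak caller and aligner were not given in the sources used here. Replicate and pooled lists each hold 300000 peaks, so their length gives no depth. Intervals cover counting error only.

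Of 7737 optimal peaks, 4 off the named chromosomes were left out. Starts came from GENCODE M21 and were those of all transcripts of a gene. Counting only protein-coding transcripts as coding starts gives 272 peaks. The members, gene lists and motifs were chosen with earlier results of these data known. List names absent from GENCODE were matched through RefSeq GRCm38.p6 synonyms, and sequence came from the same assembly. The signal of a library is that of its strongest peak with the summit inside the member. Motifs were searched within 100 bp of the summit, and the CpG ratio is the CpG count times the window length over the product of C and G counts. Named are the genes of the 25 strongest members, the 10 genes with the most summits, up to 12 small RNA genes by signal and every listed gene with a member; other names were chosen after their values were seen. Shares have exact (Clopper-Pearson) 95% binomial intervals, medians have intervals from order statistics, and no test was made. The scripts were checked on simulated data (Python 3.11.15, pandas 2.3.3, scipy 1.17.1, pysam 0.24.0, samtools 1.23.1). Alternatives were other peak sets, distances, gene types, coding starts, windows and counting.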

Additional observations from a re-analysis of the deposited data

How the results depend on the processing

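Of 116 alternative values of the main results, 107 stayed close, and of 289 values of single types and motifs 266 did; close means within the interval of the reported value or, for the number of peaks, within 1.5 times. Restricting to the stronger part of the optimal set left 134 peaks, with a median signal value of 39.1, a conservative share of 90.3% and a GC median of 52.5%, as its own selection of strong peaks makes likely. Counting overlapping peaks once, by the strongest, gave a median signal value of 32.98, by its construction, which is 1.01 times that of all peaks so counted, close to the ratio of 1.02 with every peak counted. Keeping only summits over 5000 bp from coding starts gave 14.3% with a coding start within 10 kb, by its construction, and a lincRNA share of 56.7%. Restricting to long non-coding genes, an alternative chosen after seeing the data, raised the lincRNA share to 59.6% by its construction. A motif window of 50 bp can only lower shares, and gave 9.23% for GGGCGG, 6.54% for AP-1, 10.8% for NF-Y, 7.69% for TEAD, 5% for TATAAA, 4.62% for GATA and 0.385% for YY1. The number of peaks was 243 in as many strongest peaks of the replicate 1 list, 244 in those of replicate 2, 262 in the pooled list and 227 in the conservative set, 197 with starts within 500 bp (2.55% of optimal peaks) and 363 within 2000 bp (4.69%), both shares outside the reported interval, and 241 without peaks of signal value under 10, also chosen after seeing the data. No paired analysis was possible because there is 1 group. Depth is not in the files, so how it limits weak peaks cannot be given.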
